A study of Mus musculus with 30 samples.

Results

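The 10 genes of the cytosolic heat shock response described here were followed across a set of mouse fibroblast cultures exposed to 8 small molecules: Hspa1a, Hspa1b, Hspa8, Hsph1, Dnajb1, Hspb1, Hspb8, Hsp90aa1, Hsp90ab1 and Bag3. They were found by matching the Ensembl gene IDs of the expression table to these symbols in the GENCODE M21 annotation. They make up 10 of the 29861 genes listed and 10 of the 13644 genes with at least 1 TPM (a transcript level corrected for length and scaled to the library) in at least 3 libraries; each was at or above 1 TPM in all 30 libraries. The sum of Hspa1a and Hspa1b was followed as well, since the pair share much of their sequence.

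The cells were CCG-HTA-1, a primary line of tail fibroblasts from UMHet3 mice, a genetically mixed stock bred from inbred strains, used at passage 4 and kept in ambient oxygen in a high-glucose medium without pyruvate. Groups differed by the agent present for 48 h: DMSO, the solvent (6 libraries), or 1 of Antimycin A, Dihydrorotenone, Diphenyleneiodonium Cl, Cardamonin, BerberineA, Clofilium tosylate, AEG 3482 and Podofilox (3 libraries each). Total RNA depleted of ribosomal RNA was sequenced. The mice were 5 to 8 weeks old when cells were taken, except that 1 Dihydrorotenone library (replicate 1) is labelled 8 to 11 weeks. All libraries come from 1 cell line and no label says that replicates came from separate animals, so p-values measure only the spread between these libraries, which may be technical. The series text counts 5 DMSO replicates while the labels name 6, and all 6 were used. Doses are not given in the sources used here, so the compounds may be compared at unequal doses.

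The 30 libraries held 12229 to 12700 genes at 1 TPM or more, fewest with Cardamonin (12229 to 12302) and AEG 3482 (12310 to 12366) against 12569 to 12700 with DMSO. Read depth is unknown, because the table holds TPM. The 8 fibroblast markers checked, among them collagens and Pdgfra, summed to 2405 to 8443 TPM in every library, lowest with Cardamonin (2405 to 3460) against 7223 to 8393 with DMSO. With AEG 3482 the fibroblast sum was 7371 to 8443 TPM, but its markers moved in opposite directions. Col3a1 was at 1.74 times its DMSO mean, and all the others were lower, from 0.329 (Lum) to 0.879 times (Col1a1). Keratinocyte, endothelial, skeletal muscle, adipocyte, Schwann cell and chondrocyte lists of 4 markers each summed to at most 7.86 TPM. The leukocyte and macrophage list ran from 17.4 to 44.9 TPM, highest with Cardamonin (28.6 to 44.9) against 24.4 to 29.5 with DMSO, with its defining marker Ptprc under 1 TPM in all 30. The 4 markers of that list did not move together: with Cardamonin only Cd68 was higher (2.54 times its DMSO mean), while Adgre1 (0.184 times), Csf1r (0.298 times) and Ptprc (0.587 times) were lower. The melanocyte list, with Tyr and Dct under 1 TPM in all 30, ran from 1.27 to 2.22 TPM with Cardamonin and AEG 3482. It ran from 4.54 to 6.93 TPM with DMSO and up to 18.6 TPM with Antimycin A. Most of this range came from Mlana. Mlana was at 3.52 times its DMSO mean with Antimycin A, 0.0966 times with Cardamonin and 0.0807 times with AEG 3482. Pmel was at 0.902, 0.687 and 0.928 times its DMSO mean with the same compounds, so it did not follow Mlana. The part of these marker differences in the results was not tested. In bulk RNA, fewer cells of a type and less RNA per cell cannot be told apart.

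Cells answer misfolded protein in the cytosol by making molecular chaperones. Chaperones of the HSP70 class (Hspa genes) bind exposed stretches of client proteins, J-domain proteins such as Dnajb1 deliver clients and start the ATP cycle, nucleotide exchange factors such as Hsph1 and Bag3 release them, HSP90 (Hsp90aa1, Hsp90ab1) matures kinases and receptors, and small heat shock proteins (Hspb1, Hspb8) hold unfolded protein in a form that can be refolded or degraded. Their transcription is driven by heat shock factor HSF1, which is held inactive in unstressed cells and, once freed, binds repeats of a short half-site in promoters. Hspa8 and Hsp90ab1 are the forms made at a high level in unstressed cells, while Hspa1a, Hspa1b and, in part, Hsp90aa1 are the inducible forms.

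Of the compounds, Antimycin A and Dihydrorotenone block the respiratory chain, Diphenyleneiodonium inhibits flavin-containing oxidases, Cardamonin is a plant chalcone with an electrophilic group, Clofilium blocks potassium channels, AEG 3482 is known as an inducer of HSP70, and Podofilox stops tubulin from assembling.

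The promoters of the members are shown first, because the HSF1 half-site can be read in them directly. The RefSeq promoter table (build GRCm38.p6), which spans 250 bases before to 50 bases after each transcription start, matched 7 of the 10 members with 9 promoters: Hspa1a, Hspa1b, Hsph1, Dnajb1, Hspb1, Hspb8 and Bag3. A pair of facing half-sites, written GAANNTTC or TTCNNGAA, was searched for; each reads the same on both strands, and they can overlap. Hspa1a and Hspa1b lie next to each other on the minus strand of chromosome 17, and the 200 bases before the start of each are printed to show how alike they are. Capitals mark the matched pair.

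Hspa1a: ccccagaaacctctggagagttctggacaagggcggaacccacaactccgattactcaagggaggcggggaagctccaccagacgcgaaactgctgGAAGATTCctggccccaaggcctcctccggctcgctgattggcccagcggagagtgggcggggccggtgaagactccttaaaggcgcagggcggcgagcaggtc
Hspa1b: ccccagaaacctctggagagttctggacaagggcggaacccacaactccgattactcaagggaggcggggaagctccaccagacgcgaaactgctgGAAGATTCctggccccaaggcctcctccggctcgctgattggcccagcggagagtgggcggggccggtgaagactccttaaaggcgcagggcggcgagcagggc

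These stretches are chr17:34972157-34972356 for Hspa1a and chr17:34959239-34959438 for Hspa1b. They differ at 1 of 200 bases, and the whole windows differ at 4 of 300 (98.7% identity). In both, the matched pair covers positions -104 to -97 from the start. The other members with a match are shown as 30 bases each, again with the match in capitals, because they differ in where the match sits.

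Hsph1: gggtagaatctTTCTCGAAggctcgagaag
Hsph1 triplet: gctgcagaTTCTGGAAAGTTCtcctcagta
Hspb1 far: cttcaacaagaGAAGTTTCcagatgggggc
Hspb1 near: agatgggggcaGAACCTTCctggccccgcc
Hspb8: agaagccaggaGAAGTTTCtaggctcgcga
Bag3: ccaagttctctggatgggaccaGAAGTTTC

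The stretches are chr5:149636351-149636380 and chr5:149636279-149636308 (minus strand) for Hsph1, chr5:135887791-135887820 and chr5:135887811-135887840 (plus strand) for Hspb1, chr5:116422844-116422873 (minus strand) for Hspb8 and chr7:128523603-128523632 (plus strand) for Bag3. In Hspb1 the matches ran from -117 to -110 and from -97 to -90, in Hspb8 from 3 to 10 and in Bag3 from 43 to 50, the last pair lying just inside the transcribed part. Hsph1 held a match at -54 to -47 and a run of 3 alternating half-sites, TTCNNGAANNTTC, from 16 to 28, counted from 1 of its starts in the table. Dnajb1 held no match in its window. Counted by gene, GAANNTTC was present in 6 of the 7 members and in 9.04% of the 27025 genes of the table, TTCNNGAA in 1 of 7 and in 9.60%, and either pair in 6 of 7 and in 17.0%. The run of 3, in either orientation, was present in 1 of 7 and in 0.662% of genes. Of the 32851 single promoters, 7.86% held GAANNTTC, 8.52% TTCNNGAA, 15.1% either pair and 0.603% the run of 3. A match is a description of the letters and not a binding site.

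All 10 members differed among the 9 groups by limma's moderated F test (adjusted p under 0.05), a share to be read against 86.3% of all 13644 genes tested. AEG 3482 and Cardamonin stood apart. Both raised every member, while Podofilox raised 6, and each of the other 5 compounds lowered Hspa1a and Hspa1b. The members summed to 2433 ± 77.0 TPM (SD, n = 6) with DMSO, or 0.260% of all listed TPM. The sum was 6074 ± 106 TPM with Cardamonin (0.654%), 4824 ± 27.9 TPM with AEG 3482 (0.520%) and 3144 ± 48.0 TPM with Podofilox (0.336%; SD, n = 3 each). With the remaining compounds it lay between 2384 and 2630.4 TPM.

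**Figure D1:**
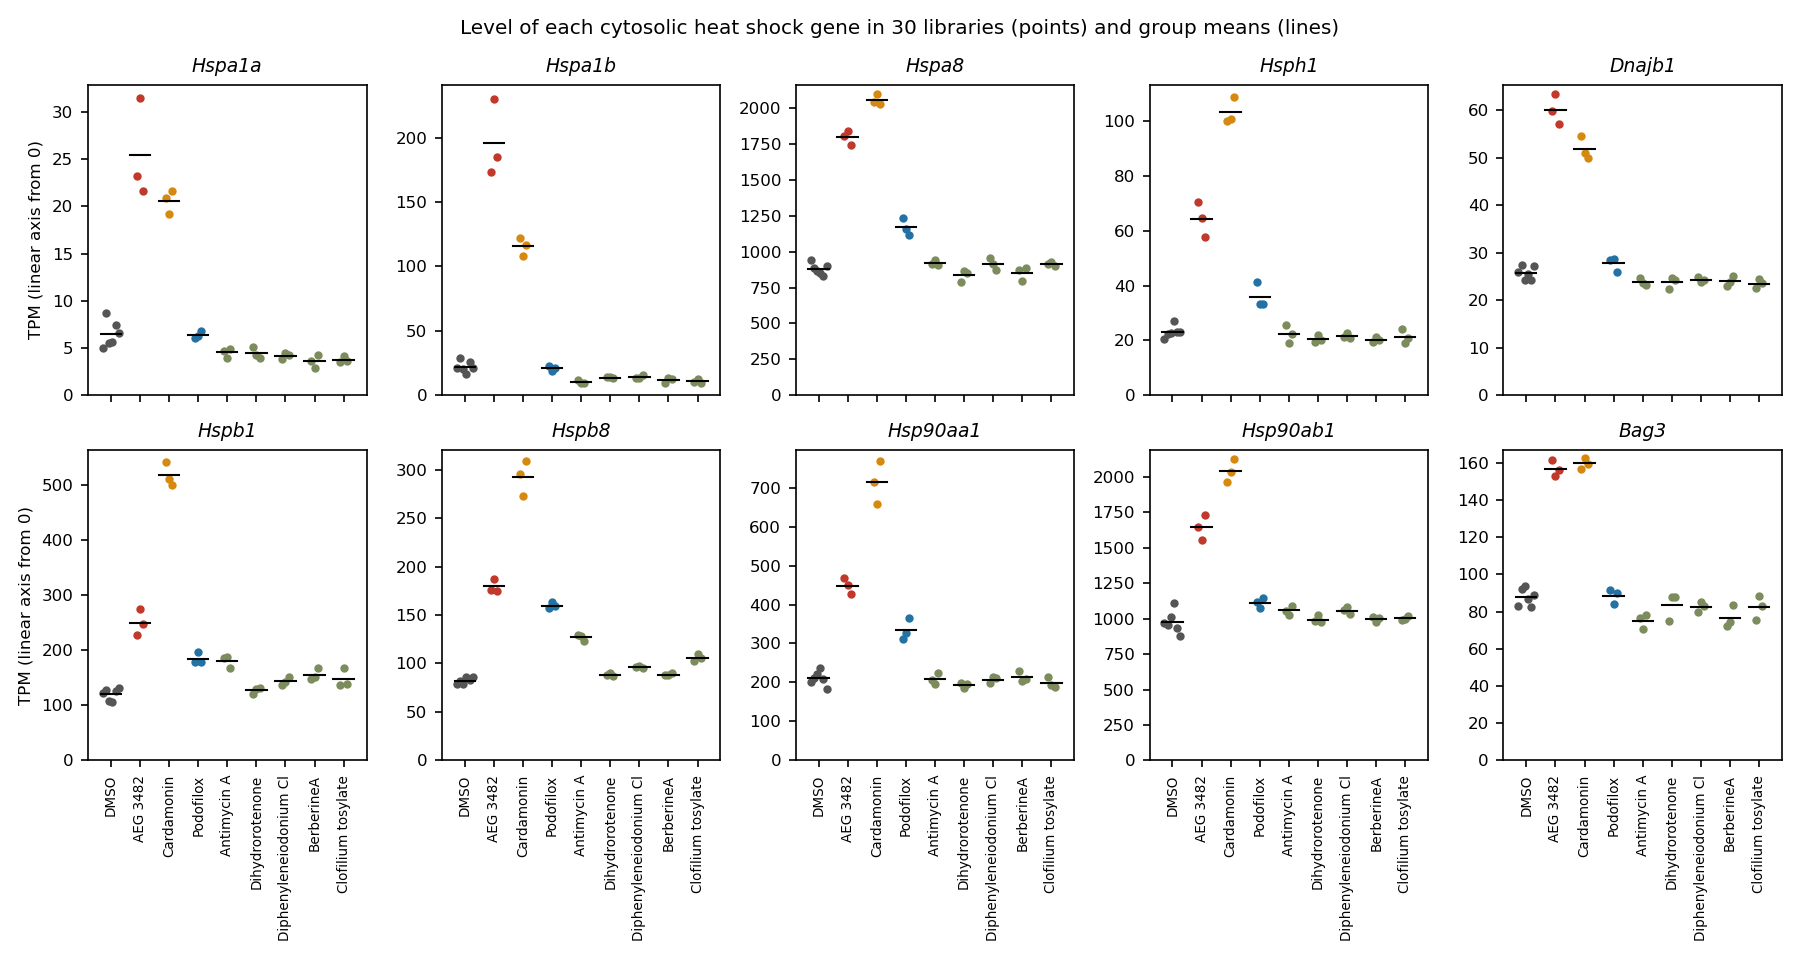
TPM of each member in every library (points, linear axis from 0) and the mean of each group (black line), 6 libraries for DMSO and 3 for each compound. The AEG 3482 and Cardamonin libraries lie above all DMSO libraries in all 10 panels, and their order changes between panels.

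With AEG 3482, 10 of 10 members rose and 0 fell, against 41.3% of all tested genes that rose and 26.8% that fell in this comparison. The members' median log2 fold change was 1.10, beside 0.10 over all tested genes. With Cardamonin, 10 of 10 rose and 0 fell, against 37.3% and 33% of all genes, with a median log2 fold change of 1.66 beside 0.03. Fold changes here and below are on the log2(TPM + 1) scale and come from 1 limma fit over all 30 libraries, with p-values adjusted by the Benjamini-Hochberg method over the 13644 genes. All comparisons with DMSO share the same 6 DMSO libraries.

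Among the inducible HSP70 genes, Hspa1b (ENSMUSG00000090877, chr17:34956436-34959238, GRCm38, minus strand) had a lowest, median and highest level of 16.6, 21.2 and 28.7 TPM over the DMSO libraries. With AEG 3482 it was at 173, 230.3 and 185 TPM, and with Cardamonin at 122, 108 and 117 TPM. Every library of both compounds was above every DMSO library, and the AEG 3482 libraries were all above the Cardamonin libraries. The log2 fold change against DMSO was 3.10 (SE 0.13, adjusted p = 8.663e-17) for AEG 3482, the largest among the 10 members in any of the 8 comparisons, and 2.35 (SE 0.13, adjusted p = 1.248e-14) for Cardamonin.

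Hspa1a (ENSMUSG00000091971, chr17:34969190-34972156, minus strand) was listed lower, at 4.99, 6.09 and 8.66 TPM (lowest, median, highest) with DMSO. It was at 23.2, 31.5 and 21.6 TPM with AEG 3482 and at 20.9, 19.2 and 21.6 TPM with Cardamonin. Both sets were above all DMSO libraries and overlapped each other. The log2 fold change was 1.83 (SE 0.13, adjusted p = 2.485e-12) for AEG 3482 and 1.55 (SE 0.13, adjusted p = 3.853e-11) for Cardamonin.

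The 2 genes could not be fully separated in this table. Of the 31-base words in the annotated transcripts of Hspa1a, 63.8% also occur in Hspa1b, and 67.6% of those of Hspa1b occur in Hspa1a, so the level of each depends on how the quantification divided shared reads. The listed ratio of Hspa1b to Hspa1a was 3.48 ± 0.47 with DMSO (SD, n = 6), 7.79 ± 0.68 with AEG 3482, 5.63 ± 0.22 with Cardamonin and 2.23 ± 0.30 with Antimycin A (SD, n = 3 each). The sum depends less on that division. It is not free of it, since TPM is corrected for length and 70.07% of the words of Hspa1a occur in some other gene, against 63.8% in Hspa1b. It had a lowest, median and highest value of 22.2, 26.9 and 37.4 TPM with DMSO. With AEG 3482 it was 197, 262 and 206 TPM and with Cardamonin 143, 127 and 139 TPM. On this measure the pair rose to 7.73 times its DMSO mean with AEG 3482 (log2 fold change 2.92, SE 0.12, adjusted p = 6.292e-17) and to 4.76 times with Cardamonin (2.23, SE 0.12, adjusted p = 7.743e-15).

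Hspa8 (ENSMUSG00000015656, chr9:40800984-40810087, plus strand), the constitutive HSP70, was already at 831, 875 and 941 TPM (lowest, median, highest) with DMSO. It reached 1802, 1843 and 1742 TPM with AEG 3482 and 2039, 2099 and 2030.0 TPM with Cardamonin. The 3 groups did not overlap. Its log2 fold change was 1.03 (SE 0.04, adjusted p = 1.266e-16) for AEG 3482 and 1.23 (SE 0.04, adjusted p = 1.989e-18) for Cardamonin. The sum of Hspa1a and Hspa1b was 3.27 ± 0.65% of the Hspa8 level with DMSO, 12.3 ± 1.70% with AEG 3482 and 6.63 ± 0.50% with Cardamonin. Of the 31-base words of Hspa8, 38.6% also occur in the processed pseudogene Gm15459, which was listed at 575 ± 24.0 TPM with DMSO, 1166 ± 45.1 with AEG 3482 and 1407 ± 54.4 with Cardamonin. Summing the pair left every call of Hspa8 against DMSO as it was. The percentages above use Hspa8 alone, and dividing by that sum instead would lower them in all 3 groups.

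The exchange factor Hsph1 (HSP110, ENSMUSG00000029657, chr5:149614287-149636376, minus strand) went from 20.3, 22.9 and 26.9 TPM (lowest, median, highest) with DMSO to 70.4, 64.6 and 57.9 TPM with AEG 3482 and to 100.02, 101 and 109 TPM with Cardamonin. The groups were apart, Cardamonin highest. The log2 fold changes were 1.44 and 2.12 (SE 0.09 for both, adjusted p = 1.907e-13 and 3.996e-17). Dnajb1, the J-domain partner of HSP70 (ENSMUSG00000005483, chr8:83608193-83612653, plus strand), went from 24.2, 25.7 and 27.4 TPM to 59.9, 63.3 and 57.1 TPM with AEG 3482 and to 54.5, 50.9 and 49.9 TPM with Cardamonin. Here AEG 3482 was the higher of the pair, again with no overlap. Its log2 fold changes were 1.19 and 0.98 (SE 0.05 for both, adjusted p = 5.495e-17 and 1.485e-15).

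Bag3, which links HSP70 to small heat shock proteins and to autophagy (ENSMUSG00000030847, chr7:128523616-128546981, plus strand), had 82.3, 87.8 and 93.5 TPM (lowest, median, highest) with DMSO. It reached 161, 153 and 156 TPM with AEG 3482 and 157, 162 and 159 TPM with Cardamonin. Both were above all DMSO libraries and overlapped each other. On the log2 scale it rose by 0.83 and 0.86 (SE 0.06 for both, adjusted p = 2.062e-12 and 6.706e-13).

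Of the small heat shock proteins, Hspb1 (HSP25, ENSMUSG00000004951, chr5:135887919-135889563, plus strand) ran from 105 to 132 TPM with DMSO, with a median of 124. It was at 228, 275 and 247 TPM with AEG 3482 and at 543, 511 and 501 TPM with Cardamonin. The Cardamonin libraries were all above the AEG 3482 libraries, and no group overlapped another. The log2 fold changes were 1.05 and 2.10 (SE 0.07 for both, adjusted p = 3.055e-12 and 1.552e-18). Of its 31-base words, 52.3% occur in the pseudogene Hsp25-ps1, listed at 0 to 53.7 TPM over the libraries, and summing the pair kept both calls. Hspb8 (HSP22, ENSMUSG00000041548, chr5:116408491-116422864, minus strand), the partner of Bag3, ran from 78.9 to 86.0 TPM with DMSO, with a median of 82.0. It was at 176, 187 and 175 TPM with AEG 3482 and at 295, 273 and 309 TPM with Cardamonin, again with no overlap. Its log2 fold changes were 1.12 and 1.82 (SE 0.04 for both, adjusted p = 1.185e-18 and 5.381e-23).

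For HSP90, the inducible form Hsp90aa1 (ENSMUSG00000021270, chr12:110690605-110702728, minus strand) had 183, 210.4 and 236 TPM (lowest, median, highest) with DMSO. It was at 467, 451 and 427 TPM with AEG 3482 and at 715, 659 and 768 TPM with Cardamonin. The constitutive form Hsp90ab1 (ENSMUSG00000023944, chr17:45567775-45573271, minus strand) had 879, 961 and 1114 TPM with DMSO, 1651, 1557 and 1734 TPM with AEG 3482 and 1963, 2032 and 2131 TPM with Cardamonin. In both genes the 3 groups were apart and Cardamonin was highest. The log2 fold changes of Hsp90aa1 were 1.09 and 1.76 (SE 0.07 for both, adjusted p = 1.869e-13 and 6.534e-18), and those of Hsp90ab1 were 0.76 and 1.07 (SE 0.05 for both, adjusted p = 9.026e-13 and 4.921e-16). Of the 31-base words of Hsp90aa1, 51.5% occur in another gene, most of them in Gm12346, which was listed at 1.03 TPM or less in every library.

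**Figure D2:**
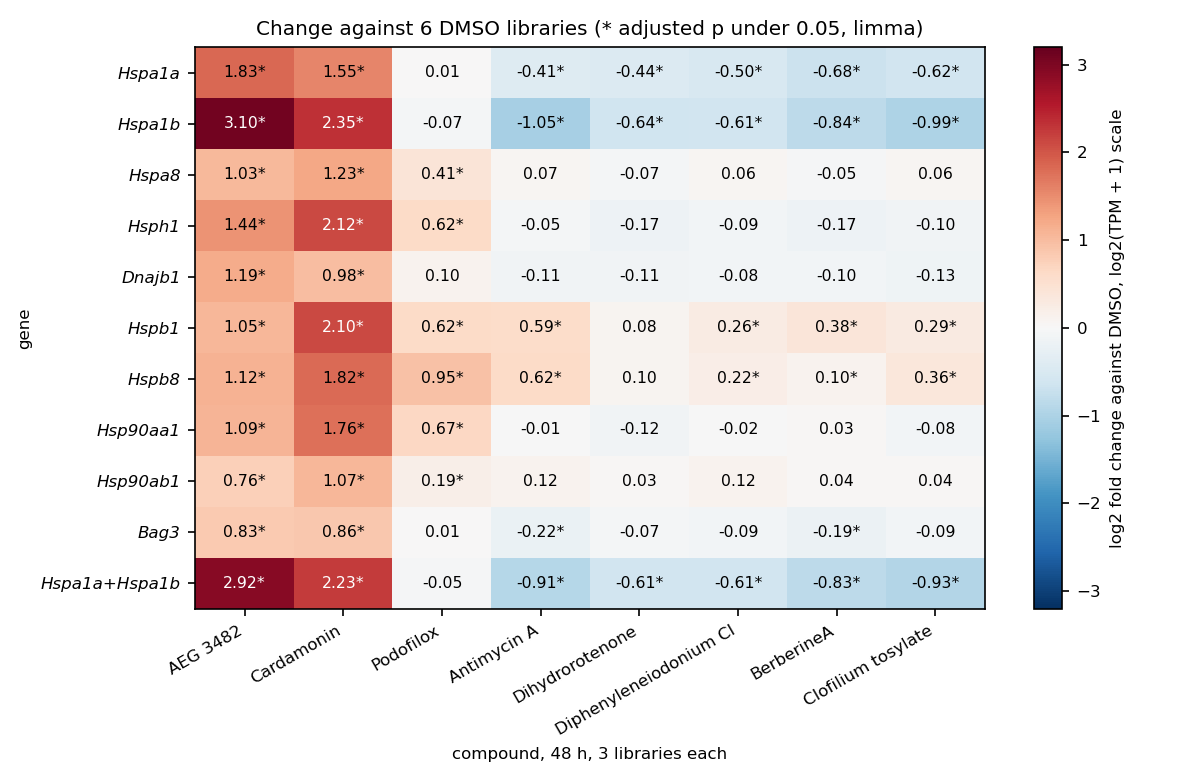
Log2 fold change against DMSO, on the log2(TPM + 1) scale, of each member and of the sum of Hspa1a and Hspa1b (rows) for the 8 compounds (columns), with asterisks where the adjusted p was under 0.05. The AEG 3482 and Cardamonin columns are positive throughout, from 0.76 to 3.10, and the Hspa1a and Hspa1b rows are negative for the 5 compounds on the right, from -0.41 to -1.05.

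Tested against each other, Cardamonin and AEG 3482 gave different mixtures of the same genes. Of the 10 members, 6 were higher with Cardamonin (22.6% of all tested genes were) and 2 were lower (32.7% were). The higher members were Hspb1 (log2 difference 1.05, SE 0.08, adjusted p = 1.247e-10), Hspb8 (0.70), Hsph1 (0.68), Hsp90aa1 (0.67), Hsp90ab1 (0.31) and Hspa8 (0.20), the last with an adjusted p of 0.001827. Lower with Cardamonin were Hspa1b (-0.75, SE 0.15, adjusted p = 0.0001263) and Dnajb1 (-0.21, SE 0.06, adjusted p = 0.002329). The call of Dnajb1 was lost when libraries were rescaled by median ratios (-0.13, adjusted p = 0.06138), which left 6 higher and 1 lower. The sum of Hspa1a and Hspa1b was lower with Cardamonin by -0.69 (SE 0.14, adjusted p = 0.0001381). Hspa1a alone gave -0.28 (95% interval -0.58 to 0.03, adjusted p = 0.1138) and Bag3 gave 0.03 (95% interval -0.11 to 0.16, adjusted p = 0.7621), so neither was called different. Hspa1a passed with a pseudocount of 5 (-0.24, adjusted p = 0.04624), which gave 6 higher and 3 lower.

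**Figure D3:**
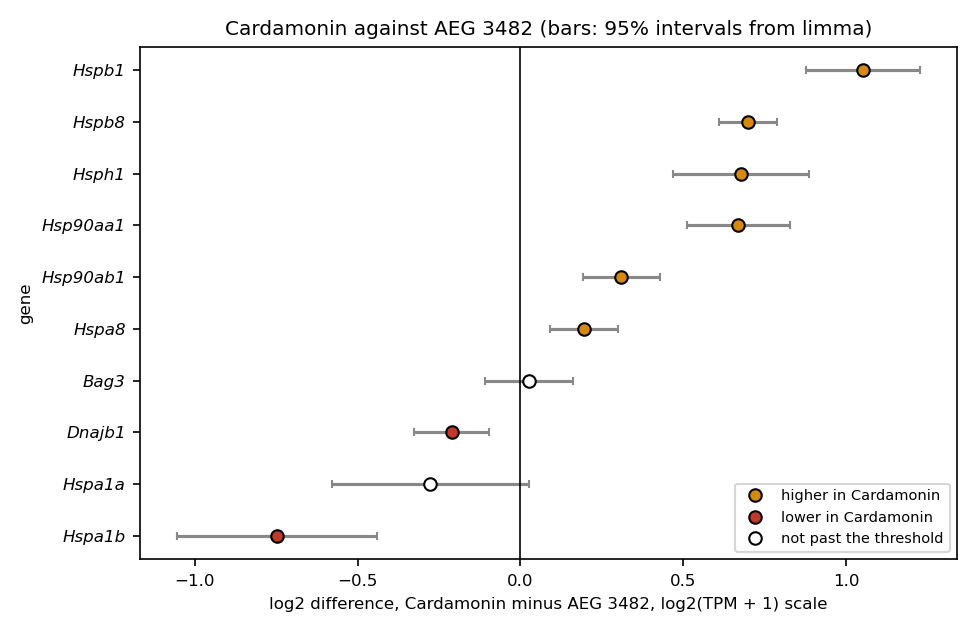
Log2 difference between Cardamonin and AEG 3482 for each member (points; positive is higher with Cardamonin) with 95% intervals from limma, on the log2(TPM + 1) scale, 3 libraries per compound. The points run from -0.75 for Hspa1b to 1.05 for Hspb1, and the open points, Bag3 and Hspa1a, did not pass the threshold.

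Podofilox raised 6 of 10 members and lowered 0, against 26.2% and 20% of all tested genes, with a median log2 fold change of 0.30 over the members beside 0.04 over all genes. The largest rise was that of Hspb8, at 157, 163 and 159 TPM, all above the highest DMSO library at 86.0 (log2 fold change 0.95, SE 0.04, adjusted p = 3.275e-16). Hsp90aa1 was at 312, 328 and 364 TPM and Hspb1 at 178, 197 and 179 TPM, both above all DMSO libraries (0.67 and 0.62). Hsph1 was at 41.5, 33.3 and 33.2 TPM (0.62) and Hspa8 at 1235, 1160.2 and 1118 TPM (0.41), again with no overlap with DMSO. The smallest rise was that of Hsp90ab1, at 1119, 1076 and 1145 TPM. It overlapped the DMSO range (0.19, SE 0.05, adjusted p = 0.002504) and lost its call after quantile normalization (0.14, adjusted p = 0.05649).

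The 4 members not called with Podofilox were the inducible HSP70 pair, Dnajb1 and Bag3. The sum of Hspa1a and Hspa1b was at 29.1, 25.0 and 27.9 TPM, inside the DMSO range of 22.2 to 37.4 (log2 fold change -0.05, 95% interval -0.29 to 0.20, adjusted p = 0.7752). Its sign changed when Podofilox replicate 2 or DMSO replicate 2 was left out, with 0.03 the highest value. Dnajb1 was at 28.5, 28.7 and 26.0 TPM (0.10, 95% interval 0.00 to 0.20, adjusted p = 0.08481) and passed the threshold without Podofilox replicate 3 (0.15) or without DMSO replicate 2 (0.12). Bag3 was at 91.4, 83.8 and 89.97 TPM (0.01, 95% interval -0.11 to 0.13, adjusted p = 0.9043).

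In the direct tests, 10 of 10 members were lower with Podofilox than with AEG 3482, against 35.2% of all genes lower and 25.1% higher. The differences ran from -3.16 for Hspa1b to -0.17 for Hspb8. The call of Hspb8 was lost under each of the 3 other scalings tried, with values from -0.09 to -0.05. Against Cardamonin, 10 of 10 were lower with Podofilox, beside 28.7% of all genes lower and 29.1% higher, from -2.41 for Hspa1b to -0.81 for Hspa8.

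The ratios between members differed between the groups. Hsp90aa1 stood at 21.5 ± 0.69% of the Hsp90ab1 level with DMSO (SD, n = 6), with libraries from 20.8 to 22.4%. It was at 28.3, 29.0 and 24.6% with AEG 3482, at 36.4, 32.4 and 36.0% with Cardamonin and at 27.9, 30.5 and 31.8% with Podofilox, all above DMSO. As a share of Hspa8, the sum of Hspa1a and Hspa1b was 2.36, 2.16 and 2.49% with Podofilox, all below the lowest DMSO library at 2.62%. The 15 libraries of the other 5 compounds were below it too, with group means from 1.57 to 2.18%, and Podofilox overlapped Dihydrorotenone (2.02 to 2.42%) and Diphenyleneiodonium Cl (1.81 to 2.25%). Hspb1 per Hspb8 was 1.46 ± 0.14 with DMSO and 1.14, 1.21 and 1.13 with Podofilox, below all DMSO libraries. The ratio was 1.84, 1.87 and 1.62 with Cardamonin and 1.69, 1.73 and 1.86 with BerberineA, above all DMSO libraries (highest 1.56). With AEG 3482 it was 1.30 to 1.47, inside the DMSO range. Hspb1 shares 52.3% of its 31-base words with Hsp25-ps1, so the ratio of Hspb1 to Hspb8 depends on how shared reads were divided. That pseudogene was listed at 4.35 to 33.0 TPM with Podofilox and at 9.78 to 20.4 TPM with BerberineA. It reached 53.7 TPM with AEG 3482 and at most 1.55 TPM with DMSO. No ratio was recomputed with Hspb1 or Hspa8 summed with its pseudogene, and no test was run on the ratios.

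**Figure D4:**
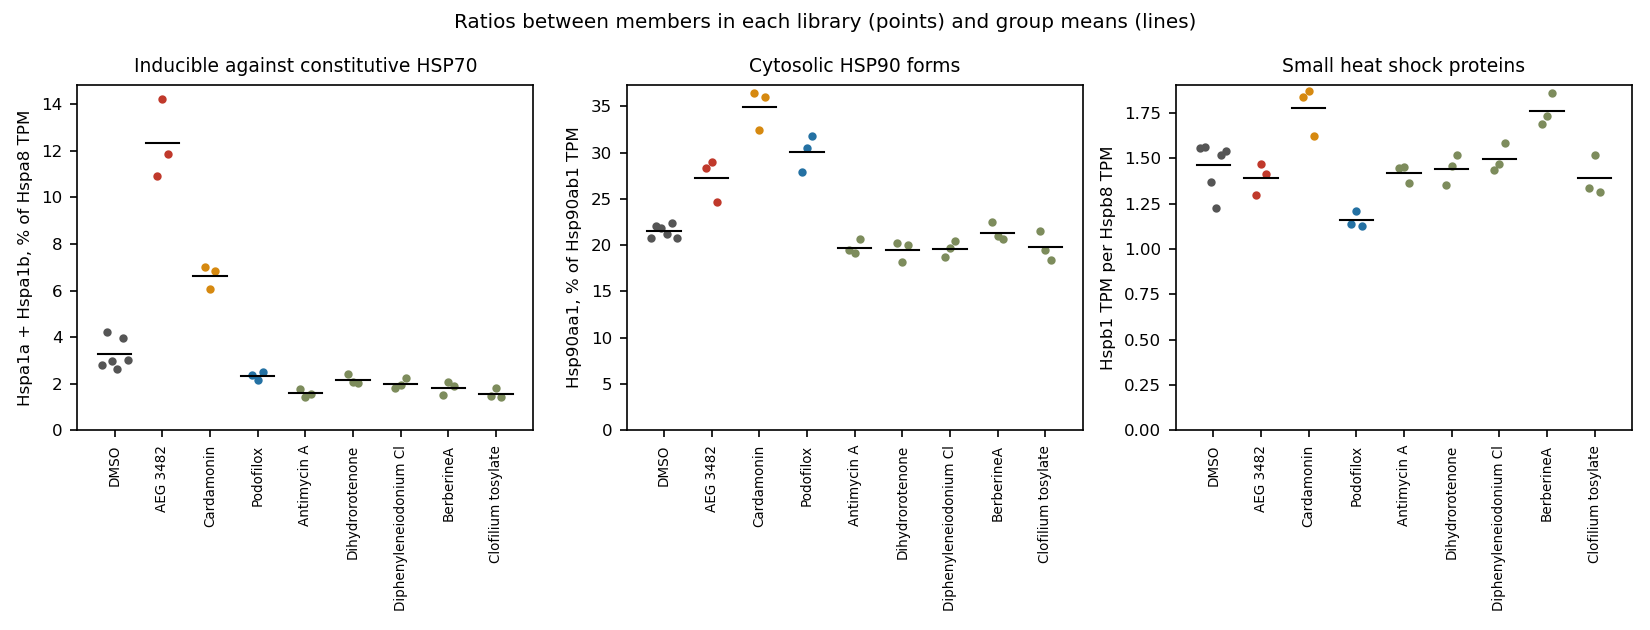
Ratios between members in each library (points) and group means (lines): the sum of Hspa1a and Hspa1b as a percentage of Hspa8, Hsp90aa1 as a percentage of Hsp90ab1, and Hspb1 per Hspb8, all from TPM with axes from 0. AEG 3482 is highest in the first panel (mean 12.3%) and Cardamonin in the second (34.96%). Hspa8 and Hspb1 were taken without the pseudogenes that share their sequence.

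The other 5 compounds shared a lower level of the inducible HSP70 pair. The sum of Hspa1a and Hspa1b was at 16.3, 13.3 and 14.2 TPM with Antimycin A, at 13.6, 16.7 and 12.9 TPM with Clofilium tosylate and at 13.3, 16.5 and 16.9 TPM with BerberineA. It was at 19.1, 18.1 and 17.2 TPM with Dihydrorotenone and at 17.3, 17.7 and 19.6 TPM with Diphenyleneiodonium Cl. All 15 libraries lay below the lowest DMSO library at 22.2 TPM. The log2 fold changes of the sum were -0.91 for Antimycin A (SE 0.12, adjusted p = 1.017e-06), -0.93 for Clofilium tosylate (adjusted p = 2.206e-06), -0.83 for BerberineA (adjusted p = 1.16e-05), -0.61 for Dihydrorotenone (adjusted p = 0.0009779) and -0.61 for Diphenyleneiodonium Cl (adjusted p = 0.0003613). In the order of group means the sum ran from AEG 3482 and Cardamonin through DMSO and Podofilox, which overlapped, to these 5, of which each neighbour overlapped the next except Dihydrorotenone and BerberineA.

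Each gene of the pair fell with each of the 5 compounds. Hspa1b fell by between 0.61 (Diphenyleneiodonium Cl) and 1.05 (Antimycin A) on the log2 scale, with all libraries below DMSO. Hspa1a fell by between 0.41 (Antimycin A) and 0.68 (BerberineA). The fall of Hspa1a with Dihydrorotenone overlapped DMSO (-0.44, adjusted p = 0.01977). It was lost without Dihydrorotenone replicate 2 (-0.42, adjusted p = 0.08341) or 3 (-0.38, adjusted p = 0.09982), and with Antimycin A it was lost without Antimycin A replicate 2 (-0.34, adjusted p = 0.08026).

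Beside these falls, the small heat shock proteins rose with 4 of the 5 compounds in the fit over all libraries. With Antimycin A, Hspb1 was at 187, 187 and 168 TPM and Hspb8 at 129, 129 and 123 TPM, all above every DMSO library (log2 fold changes 0.59 and 0.62, adjusted p = 5.385e-07 and 1.77e-12). With Clofilium tosylate, Hspb8 was at 102, 110.1 and 106 TPM (0.36, adjusted p = 1.05e-07) and Hspb1 at 136, 167 and 139 TPM (0.29, adjusted p = 0.004699; 0.20 and 0.08562 without Clofilium tosylate replicate 2). Both genes were above DMSO in all of these libraries. With Diphenyleneiodonium Cl, Hspb8 was at 96.1, 97.3 and 95.1 TPM (0.22, adjusted p = 6.046e-05) and Hspb1 at 138, 143 and 151 TPM (0.26, adjusted p = 0.009906). That call of Hspb1 was lost when it was summed with Hsp25-ps1 (0.28, adjusted p = 0.05656) or without Diphenyleneiodonium Cl replicate 3 (0.23, adjusted p = 0.06602).

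With BerberineA, Hspb1 was at 148, 152 and 168 TPM (0.38, adjusted p = 0.0004679). Hspb8 was at 87.7, 87.7 and 90.2 TPM, a rise of 0.10 (SE 0.04, adjusted p = 0.04647) that was lost when any 1 BerberineA library or DMSO replicate 1, 2, 3 or 5 was left out, and under median-ratio scaling (0.08, adjusted p = 0.2394). With Dihydrorotenone neither was called: Hspb1 was at 119.9, 130.4 and 131 TPM, inside the DMSO range (0.08, 95% interval -0.07 to 0.24, adjusted p = 0.5021). Hspb8 was at 88.4, 89.7 and 86.5 TPM, above all DMSO libraries (0.10, 95% interval 0.02 to 0.18, adjusted p = 0.07614), and passed without DMSO replicate 4 or 6 (0.11 for both). It also passed after median-ratio scaling (0.14, adjusted p = 0.03602) and quantile normalization (0.14, adjusted p = 0.009126), so whether Hspb8 was called with Dihydrorotenone depended on the scaling.

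Bag3 fell with Antimycin A, at 76.4, 70.3 and 78.2 TPM, all below DMSO (-0.22, SE 0.06, adjusted p = 0.002803). It fell with BerberineA, at 72.3, 74.4 and 83.5 TPM, which overlapped DMSO (-0.19, adjusted p = 0.01541), a call lost without BerberineA replicate 1 (-0.15, adjusted p = 0.1065) or 2 (-0.17, adjusted p = 0.08321). Hspa8, Hsph1, Dnajb1, Hsp90aa1 and Hsp90ab1 did not pass the threshold with any of the 5 compounds. With DMSO replicate 4 left out, Hsp90ab1 passed with Antimycin A and with Diphenyleneiodonium Cl (0.16 for both), and Dnajb1 passed with Clofilium tosylate without DMSO replicate 3 or 5 (-0.14 for both). Other scalings brought in Dnajb1 with Antimycin A (from -0.14 to -0.13 under each of 3) and with Clofilium tosylate (-0.14 without the 20 most abundant genes), and, after quantile normalization, Hspa8 with Dihydrorotenone (-0.16) and BerberineA (-0.15). In the fit over all libraries their log2 fold changes ran from -0.17 (Hsph1, BerberineA) to 0.12 (Hsp90ab1, Antimycin A), and their group means stayed between 836 and 919 TPM for Hspa8, between 20.3 and 22.3 for Hsph1, between 23.5 and 24.3 for Dnajb1, between 193 and 214 for Hsp90aa1 and between 993 and 1058 for Hsp90ab1.

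Counted over the members, Antimycin A gave 2 higher and 3 lower, against 21.8% and 15.5% of all tested genes, with a median log2 fold change of -0.03 beside 0.03 over all genes. Diphenyleneiodonium Cl gave 2 higher and 2 lower (14% and 11.7% of all genes; medians -0.05 and 0.02). Clofilium tosylate gave 2 higher and 2 lower (10.9% and 12.5%; medians -0.09 and -0.00015). BerberineA gave 2 higher and 3 lower (12.6% and 9.16%; medians -0.07 and 0.02), which became 1 higher and 3 lower after median-ratio scaling or after rescaling without the 20 most abundant genes, and 3 in all without BerberineA replicate 1 or 2. Dihydrorotenone gave 0 higher and 2 lower (4.95% and 9.43%; medians -0.09 and -0.03), which became 1 higher and 2 lower after median-ratio scaling and 1 higher and 3 lower after quantile normalization. It gave 1 call in all without Dihydrorotenone replicate 2 or 3.

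Antimycin A and Dihydrorotenone, which act on different complexes of the respiratory chain, were tested against each other. Of the members, 2 were higher with Antimycin A (11.6% of all genes were) and 0 were lower (3.91% were): Hspb1 (log2 difference 0.50, SE 0.08, adjusted p = 0.0001483) and Hspb8 (0.52, SE 0.04, adjusted p = 5.317e-09). Both were above Dihydrorotenone in every Antimycin A library. Hspa1b was lower in every Antimycin A library, by -0.42 (95% interval -0.72 to -0.11, adjusted p = 0.05821), and passed the threshold under each of the 3 other scalings, with values from -0.50 to -0.45, and without Antimycin A replicate 1 (-0.51). Bag3 (-0.15, 95% interval -0.29 to -0.02, adjusted p = 0.1297) passed after median-ratio scaling and quantile normalization, and without Dihydrorotenone replicate 1 (-0.23). Hspa8 (0.14, adjusted p = 0.06397) passed only when summed with Gm15459 (0.15, adjusted p = 0.02867). The count was 2 higher and 2 lower under median-ratio scaling or quantile normalization, and 2 higher and 1 lower without the 20 most abundant genes.

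The members stood among a wider list of cytosolic chaperones, co-chaperones and heat shock responsive genes, of which 52 of 55 could be tested. With Cardamonin, 36 of the 52 rose and 10 fell, with a median log2 fold change of 0.55, beside 37.3% and 33% of all tested genes and a median of 0.03. With AEG 3482, 33 rose and 8 fell (median 0.39), beside 41.3% and 26.8% of all genes (median 0.10). With Podofilox 26 rose and 5 fell (median 0.16), beside 26.2% and 20% (median 0.04). The smaller lists are to be read against the same shares. The HSP90 co-chaperones, which load clients on HSP90 and pace its ATP cycle, rose in 11 of 11 with Cardamonin, 10 of 11 with AEG 3482 and 6 of 11 with Podofilox, where 1 fell. The J-domain co-chaperones rose in 6, 7 and 4 of 8, and fell in 2, 1 and 0. Of 5 further genes named as small heat shock proteins, 0 rose and 3 fell with Cardamonin. With AEG 3482, 0 rose and 1 fell (41.3% and 26.8% of all genes). With Podofilox, 1 rose and 1 fell (26.2% and 20%), the fall being that of Hspb11, which was listed by its name. Counts over 5 genes do not describe the family as a whole.

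Hspa4l, a relative of Hsph1 in the HSP110 family, was among the 3 listed genes with the largest rise for each of these compounds. It was at 3.79, 4.24 and 6.11 TPM (lowest, median, highest) with DMSO. With AEG 3482 it was at 33.3, 38.7 and 37.0 TPM (log2 fold change 2.77), with Cardamonin at 23.3, 21.5 and 24.8 TPM (2.14) and with Podofilox at 11.9, 12.5 and 13.0 TPM (1.30). The 3 compounds and DMSO did not overlap. Zfand2a, a regulator of the proteasome that arsenite and heat induce, was led by Cardamonin, at 120, 112 and 120 TPM against 16.6 to 23.3 TPM with DMSO (2.57, SE 0.09, adjusted p = 1.633e-18). Cacybp, a co-chaperone that binds ubiquitin ligases, rose from a mean of 64.2 to 178 TPM with Cardamonin (1.46).

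Dnajb6, a J-domain protein that keeps aggregation-prone proteins soluble, rose from a mean of 172 TPM to 356 TPM with AEG 3482 (1.05) and to 346 TPM with Podofilox (1.01). Dedd2, a death-effector protein in the heat shock responsive list, rose with AEG 3482 (1.55) and with Podofilox (0.97), from 2.83 TPM to 10.1 and 6.38 TPM. Among those that fell with Cardamonin, the small heat shock proteins Hspb6 and Hspb7, best known from muscle, went from means of 11.1 and 5.59 TPM to 4.96 and 2.44 TPM (-1.03 and -0.94), and the J-domain protein Dnajc7 fell by 0.39. With AEG 3482 the falls were led by Dnajc7 (-0.54), Bag2 (-0.47) and Hsf4 (-0.45), and with Podofilox by Hspb11 (-0.42), Fkbp5 (-0.36) and Hsf4 (-0.23).

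The transcript of Hsf1 itself was chosen here after its values were seen. It was at 30.0, 33.8 and 37.8 TPM (lowest, median, highest) with DMSO, at 25.8, 30.0 and 28.5 TPM with AEG 3482 and at 39.3, 38.7 and 41.0 TPM with Cardamonin. It fell with AEG 3482 (-0.26), as did 26.8% of all tested genes, and rose with Cardamonin (0.23), as did 37.3%. Every member rose with both. The part of the Hsf1 transcript in the rises of the members was not tested.

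**Figure D5:**
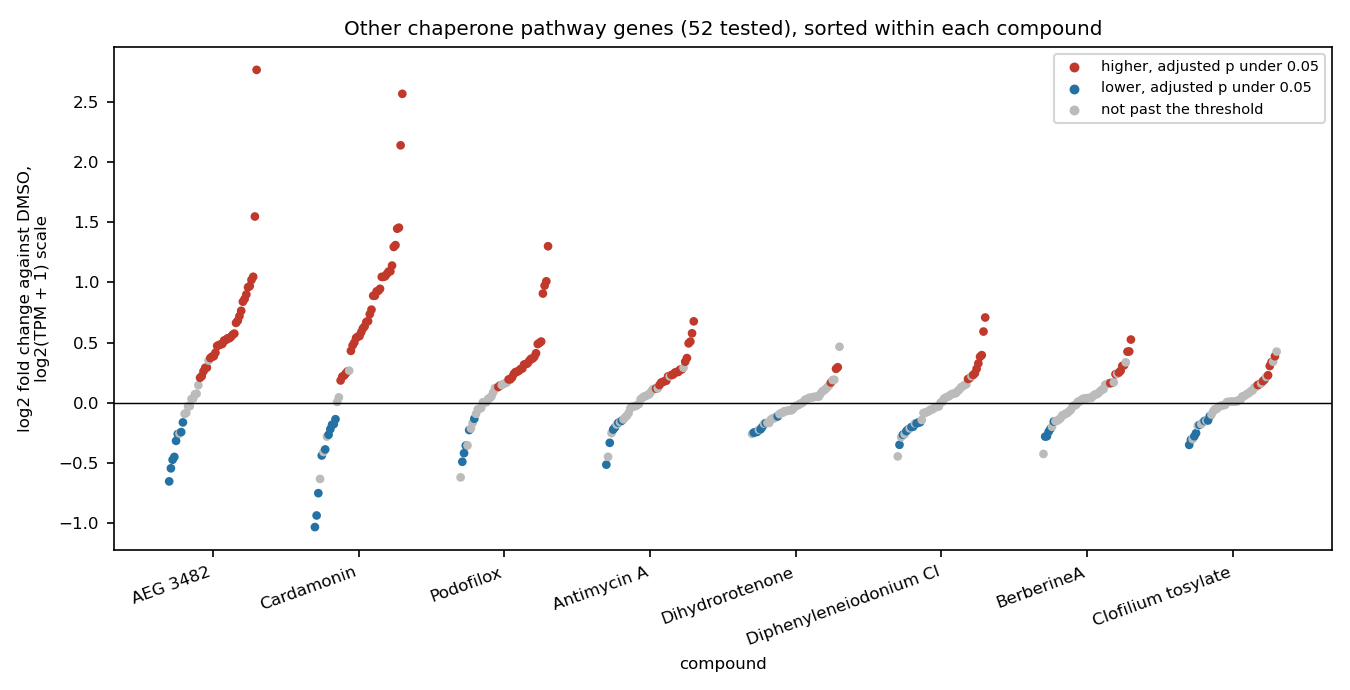
Log2 fold change against DMSO, on the log2(TPM + 1) scale, of the 52 tested genes of the wider chaperone list, sorted within each compound; red and blue points passed the threshold and grey points did not. Rises of more than 1 are seen with AEG 3482, Cardamonin and Podofilox, led by Hspa4l and Zfand2a.

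With the remaining compounds the wider list gave smaller changes in both directions. Antimycin A gave 20 higher and 6 lower of 52 (21.8% and 15.5% of all tested genes), or 16 and 9 after quantile normalization or without the 20 most abundant genes. Diphenyleneiodonium Cl gave 10 and 9 (14% and 11.7% of all genes). BerberineA gave 10 and 5 (12.6% and 9.16%), or 10 and 9 after quantile normalization and 9 and 7 without the 20 most abundant genes. Clofilium tosylate gave 8 and 8 (10.9% and 12.5%), or 10 and 6 after median-ratio scaling or quantile normalization, and between 6 and 18 calls in all when 1 library was left out, fewest without Clofilium tosylate replicate 2 and 9 without replicate 3. Dihydrorotenone gave 3 and 7 (4.95% and 9.43%), or 8 and 5 after median-ratio scaling and 7 and 5 after quantile normalization, and 5 calls in all without Dihydrorotenone replicate 3.

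Some genes recurred among the largest changes with these 5 compounds. Bag1, an exchange factor of HSP70, rose with all 5, by 0.30 to 0.51, from a mean of 86.4 TPM to between 107 and 123 TPM. Outside the naming rule, it also rose with Cardamonin (0.59), AEG 3482 (0.54) and Podofilox (0.19). Serpinh1, the collagen chaperone HSP47 of the endoplasmic reticulum, fell with all 5, from 473 TPM to 333 TPM with Antimycin A (-0.51), 371 TPM with Diphenyleneiodonium Cl and with Clofilium tosylate (-0.35 for both), 389 TPM with BerberineA (-0.28) and 400 TPM with Dihydrorotenone (-0.24). The sum of the 8 fibroblast markers was also lower than with DMSO in these 5 groups, at 4170 to 6723 TPM. Of the single markers only Pdgfra had means above DMSO, with Diphenyleneiodonium Cl (1.10 times) and BerberineA (1.01 times). The part of the markers in the fall of Serpinh1 was not tested. Hspa4l and Dedd2 rose with Antimycin A (0.58 and 0.68) and with Diphenyleneiodonium Cl (0.59 and 0.71). Hspa4l also rose with BerberineA (0.43), where its libraries overlapped DMSO. Hsf4 rose with BerberineA (0.53), Clofilium tosylate (0.39) and Dihydrorotenone (0.28).

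Outside the 10 members, 2558 genes were compared with Hspa1a plus Hspa1b by their pattern over the 9 group means. Genes of the wider chaperone list were not left out. Most alike were Zadh2 (Pearson r = 0.990), Medag (0.989), Sms (0.989), Pknox1 (0.989) and Plce1 (0.987). The 9 means share their libraries across genes, and in all 5 genes AEG 3482 and Cardamonin had the highest means. Medag went from 45.3 TPM with DMSO to 206 TPM with AEG 3482 and 134 TPM with Cardamonin, and it was at 27.4 TPM with Antimycin A. Among the members, the same measure was 0.991 for Dnajb1, 0.983 for Bag3, 0.940 for Hspa8 and 0.924 for Hsph1, and lowest for Hspb1 (0.765) and Hspb8 (0.774), which rose with 4 of the 5 compounds that lowered the HSP70 pair.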

How the data were processed

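The deposited table gives TPM per gene, made by the authors with kallisto 0.43.1, per the submitters' processing notes, and summarised with tximport, per the series' design text. The notes also name FastQC and mm10; the transcript annotation is not given in the sources used here. The design text's own differential tests need counts, so limma (3.58.1, R 4.3.3) was used on log2(TPM + 1) with 1 mean per group, a variance trend, and Benjamini-Hochberg adjustment over the 13644 genes that reached 1 TPM in 3 or more libraries; calls are at an adjusted p under 0.05. Fold changes on this scale understate those of low genes. IDs were matched to GENCODE M21 (29426 of 29861). Shared 31-base words were counted over its transcripts. The script was tested on simulated data.

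The members, the direct comparisons and the gene lists were chosen with earlier results of these data known. Named list genes are, per compound, up to 3 with the largest rise and 3 with the largest fall among called genes reaching 5 TPM in either group. Alternatives were other pseudocounts (0.1 and 5), filters, scalings, variance models, a replicate block, only the groups compared, each library left out and, after seeing the data, Hspa8 and Hspb1 summed with a pseudogene. Hspa14, from the wider list, was not analysed here.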

Additional observations from a re-analysis of the deposited data

How the results depend on the processing

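The table holds TPM, so read depth and counting error are unknown, groups of 3 libraries limit the small differences, and Hspa1a, Hspa1b, Hspa8, Hspb1 and Hsp90aa1 share sequence with other listed genes. Of 120 member values (10 members in 12 comparisons), 13 changed sign under some of the 13 other settings, 8 lost their call and 11 gained one, and 0 of the called values changed sign. The cause of these changes was not tested. With only the groups compared in the fit, the number of members changed was 1 for Dihydrorotenone and 3 for BerberineA, and the number of wider-list genes changed was 6 for Dihydrorotenone and 6 for Clofilium tosylate. Members changed between Antimycin A and Dihydrorotenone numbered 4 after median-ratio scaling and 4 after quantile normalization, which also gave 4 for Dihydrorotenone against DMSO.

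The values that changed sign were not called in either setting. After median-ratio scaling they were Hsp90aa1 with BerberineA (-0.0021), Hspa1a and Bag3 with Podofilox (-0.019 and -0.022), and Hspa1a and Dnajb1 between Antimycin A and Dihydrorotenone (-0.027 and -0.058). After quantile normalization they were Hspa8 with Antimycin A (-0.053), Diphenyleneiodonium Cl (-0.014) and Clofilium tosylate (-0.015), Hsp90ab1 with Antimycin A (-0.033), Dihydrorotenone (-0.054), BerberineA (-0.023) and Clofilium tosylate (-0.046), Hsp90aa1 with BerberineA (-0.010), Bag3 with Podofilox (-0.035), and Hspa1a and Dnajb1 between Antimycin A and Dihydrorotenone (-0.037 and -0.067). Without the 20 most abundant genes they were Hsp90aa1 with BerberineA (-0.0018) and that same Dnajb1 difference (-0.021).

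Leaving out 1 library at a time gave 3 to 5 members changed for BerberineA, 1 to 3 for Dihydrorotenone, and 5 to 10 wider-list genes for Dihydrorotenone and 6 to 18 for Clofilium tosylate. The sum of Hspa1a and Hspa1b with Podofilox ranged from -0.115 to 0.0298. Other uncalled values crossed 0: Bag3 with Dihydrorotenone (-0.111 to 0.0021) and Podofilox (-0.014 to 0.048), Hsp90aa1 with Antimycin A (-0.060 to 0.037), BerberineA (-0.023 to 0.059) and Diphenyleneiodonium Cl (-0.055 to 0.0185), Hsp90ab1 with Dihydrorotenone (-0.0021 to 0.066), Hspa1a and Hspa1b with Podofilox (-0.050 to 0.088 and -0.142 to 0.010), Hspa8 with BerberineA (-0.080 to 0.0010), Hsph1 with Antimycin A (-0.151 to 0.049), and, between Antimycin A and Dihydrorotenone, Dnajb1 (-0.036 to 0.031) and Hspa1a (-0.034 to 0.113).

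Deviations from the group means had a median correlation of 0.0080 over 108 pairs of libraries with the same replicate number (-0.107 to 0.151). It was 0.00081 over 288 pairs with different numbers. A median near 0 cannot exclude a pairing that acts on part of the genes. Under a block for the replicate number, more genes passed in each of the 4 direct comparisons, such as 2341 against 2114 between Antimycin A and Dihydrorotenone. Fewer passed in each of the 8 comparisons with DMSO, such as 8872 against 9287 for AEG 3482. With the replicate number as a block, the members changed numbered 10 for Cardamonin and AEG 3482, 6 for Podofilox, 5 for Antimycin A, Diphenyleneiodonium Cl and BerberineA, 4 for Clofilium tosylate and 2 for Dihydrorotenone. Replicates 4, 5 and 6 exist only for DMSO, so under the block the comparisons with DMSO rest on DMSO replicates 1 to 3. The part of these fewer DMSO libraries in the changed calls was not tested. The block turned 2 higher and 3 lower into 3 and 2 for Antimycin A. It turned 0 and 2 into 1 and 1 for Dihydrorotenone, and 2 and 2 into 3 and 2 for Diphenyleneiodonium Cl. Calls gained under the block were Hsp90ab1 with Antimycin A (0.11, adjusted p = 0.02877) and Diphenyleneiodonium Cl (0.11, adjusted p = 0.04208), Hspb8 with Dihydrorotenone (0.14, adjusted p = 0.02894), and Hspa1b between Antimycin A and Dihydrorotenone (-0.42, adjusted p = 0.04105). Under the block Hspa1a lost its call with Antimycin A (-0.39, adjusted p = 0.05814) and Dihydrorotenone (-0.41, adjusted p = 0.08579), Hsph1 with Antimycin A was 0.022 and Bag3 with Podofilox was -0.018.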
